A study of Oryctolagus cuniculus with 16 samples.

Results

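Vein grafts taken 7 days after surgery were compared with veins of a sham surgery group in male rabbits, on Agilent one-colour rabbit arrays hybridized with Cy3-labelled RNA. Of the 16 arrays of the series, 10 belong to this comparison, with 6 arrays labelled as vein graft 7 days after surgery and 4 labelled as sham surgery. The 6 arrays of grafts taken on day 1 entered the same model and are used here only as a further level for the genes named. All groups are described as vein tissue, and the strain, the age of the rabbits and whether arrays stand for separate animals are not given in the sources used here. The genes described are those that could be named and that the study did not list in its tables of enriched pathways and hub genes. They numbered 1932 of the 19292 genes tested, and 1845 of them carried a gene symbol rather than a locus number.

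A vein moved into the arterial circulation meets a higher pressure and flow than in its own bed. In such grafts, endothelium is lost at first, leukocytes enter the wall, and smooth muscle cells and fibroblasts later migrate, divide and lay down matrix, which thickens the intima. Contractile smooth muscle is recognised by its heavy myosin chain, by desmin and by the channels and calcium stores that set tone, whereas macrophages are recognised by scavenger receptors, the oxidase of phagocytes and proteinases that cut elastin and collagen.

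The spread between arrays set the number of samples. Values below are log2 quantile-normalized intensities, which can be compared between samples for the same gene but not between genes. Day 7 replicates 1, 3 and 5, and likewise replicates 2, 4 and 6, differed from each other by less than the noise between spots of the same probe (SD of the log2 difference 0.118 to 0.131, against 0.252 to 0.253 from spot noise), and each set was averaged as 1 sample. The resulting 2 day 7 samples differed by little more than that noise (0.265 to 0.283). Sham arrays were kept as 4 samples, although arrays 1 and 2 and arrays 3 and 4 were close (0.257 to 0.306, against 0.236 from spot noise) while arrays of different pairs were far apart (0.763 to 0.771). The 2 day 1 samples, averaged likewise, also enter the model's shared spread and differed by about spot noise (0.289 to 0.319, against 0.319). P-values thus measure the spread between these samples, which in the graft groups is close to spot noise and may be largely technical. Sham arrays shared a scan that held no other group, so that scan and group cannot be told apart.

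A gene was called when it changed by 1 or more on the log2 scale, in either direction, and its limma p adjusted by the Benjamini-Hochberg method was under 0.05. Over all genes tested, 31.3% were called between day 7 and sham, 17.6% as higher and 13.6% as lower on day 7. Among the 1932 genes described here, 342 (17.7%) were higher and 306 (15.8%) were lower, and their median log2 fold change was 0.01, against 0.05 over all genes. The adjusted p alone was under 0.05 in 1154 of them (59.7%), against 57.8% of all genes, and the samples of both groups did not overlap in 1354 (70.1%), against 69.8% of all genes. The called genes included 151 that differed by at least 3 on the log2 scale, 67 of them higher and 84 lower. Over all 19292 genes tested, 1195 did so, 660 of them higher and 535 lower. In 36 of the 648 called genes, the probe was not well above background on any array of the lower group, and for such genes only a bound on the fold is given. Over all genes, this held for 616 of the 6031 called. In a further setting, the day 7 arrays were counted as 1 sample and the sham arrays as 2 pairs. It was chosen after seeing the data and is called the smaller sample count below. Most calls were lost in it, over all genes as among the genes described.

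The 12 largest rises and falls are those among called genes above background on all day 7 and sham arrays, so that dimmer genes such as FMO2, MMP13 and TIMP4 are given further on. Genes known from macrophages were among the largest rises. MMP12, the macrophage elastase, stood at 18.95 and 18.84 in the day 7 samples and at 6.93, 6.90, 9.03 and 8.95 in sham samples 1 to 4, a log2 fold change of 10.95 ± 0.68 (SE, limma adjusted p = 1.4e-05). ARG1, the arginase that converts arginine to ornithine and urea, stood at 16.78 and 16.76 against 5.39, 4.85, 8.26 and 8.36, with a log2 fold change of 10.05 ± 1.051 (limma adjusted p = 0.00017). For both genes, sham samples 3 and 4 lay above sham samples 1 and 2 by more than 2 on the log2 scale, and both day 7 samples lay far above all 4. MSR1, the class A scavenger receptor that takes up modified lipoproteins, stood at 15.83 and 15.70 against 8.80, 8.76, 9.42 and 9.50 (6.65 ± 0.24, limma adjusted p = 1.4e-06). CYBB, the catalytic subunit of the phagocyte NADPH oxidase, stood at 13.02 and 13.07 against 6.77, 6.64, 7.59 and 7.29 (5.97 ± 0.26, limma adjusted p = 3.2e-06). CD38, an ectoenzyme that consumes NAD, stood at 14.03 and 14.18 against 7.19, 7.09, 7.89 and 7.90 (6.59 ± 0.26, limma adjusted p = 2.1e-06). In these genes no sham sample came near a day 7 sample.

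The other large rises joined nucleotide, tryptophan and amino acid handling with acute-phase and antigen-presenting genes. XDH, which forms uric acid and can release superoxide, stood at 12.67 and 12.48 against 4.13, 3.58, 4.12 and 3.79 and was 407-fold higher by its brightest probe (8.67 ± 0.18, limma adjusted p = 2.8e-07), with all 6 probes called and log2 fold changes from 3.20 to 9.56. SAA3, an acute-phase serum amyloid A, stood at 18.68 and 18.59 against 11.36, 11.28, 11.41 and 11.46 and was 153-fold higher (7.26 ± 0.09, limma adjusted p = 7.6e-08). For both, the 4 sham samples lay close together. KMO, which hydroxylates kynurenine in tryptophan breakdown, had a log2 fold change of 7.41 ± 0.47, and APOBEC1, a cytidine deaminase that edits apolipoprotein B mRNA, one of 7.27 ± 0.54. RLA-DMB, a chain of the molecule that loads peptides on class II, stood at 17.68 in both day 7 samples against 10.54, 10.55, 11.83 and 11.89 (6.48 ± 0.43, limma adjusted p = 1.98e-05). SLC7A5, the light chain of a large neutral amino acid transporter, had a log2 fold change of 6.04 ± 0.40, and its heavy chain SLC3A2 one of 3.21 ± 0.10. IL1RN, the natural antagonist of the interleukin 1 receptor, had a log2 fold change of 5.84 ± 0.42. Each of these 12 largest rises was also called with the smaller sample count, and 7 of the 12 differed by more than 1 on the log2 scale between sham samples 1 and 2 and sham samples 3 and 4, all being higher in the latter.

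The largest falls included genes known from vessel wall, fat and nerve. ADH1A, an alcohol dehydrogenase that also oxidises retinol, stood at 8.08 and 8.37 in the day 7 samples and at 16.68, 16.27, 16.85 and 16.88 in the sham samples, a log2 fold change of -8.44 ± 0.22 (limma adjusted p = 4.2e-07). PENK, the precursor of enkephalins, stood at 5.30 and 5.54 against 12.82, 12.73, 14.39 and 14.35 (-8.15 ± 0.53, limma adjusted p = 1.8e-05). SLC2A4, the insulin-responsive glucose transporter of fat and muscle, stood at 7.39 and 7.43 against 14.23, 14.00, 15.38 and 15.14 (-7.28 ± 0.39, limma adjusted p = 7.2e-06). Every sham sample was above every day 7 sample in these genes by more than 6 on the log2 scale. FMO1, a flavin monooxygenase, had a log2 fold change of -7.03 ± 0.46, and SLC22A3, a carrier of organic cations such as monoamines, one of -6.79 ± 0.22. By probe, these ranged from -7.26 to -1.67 for FMO1 and from -8.17 to -3.61 for SLC22A3. MYH11, the heavy chain of smooth muscle myosin, stood at 9.86 and 10.50 against 17.18, 17.19, 16.11 and 16.20 (-6.49 ± 0.38, limma adjusted p = 1.02e-05). PODXL, a sialomucin of endothelium and podocytes, stood at 10.45 and 10.37 against 16.85, 16.85, 16.54 and 16.55 (-6.29 ± 0.13, limma adjusted p = 2.8e-07). APOD, a lipocalin found in fibroblasts and nerve sheath, stood at 10.40 and 10.14 against 16.47, 16.41, 16.53 and 16.63 (-6.24 ± 0.12, limma adjusted p = 2.4e-07). The sham samples of PODXL and APOD were nearly alike.

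In 3 further falls the sham pairs lay farther apart. PTGER3, a receptor for prostaglandin E, stood at 10.48, 10.49, 13.27 and 13.41 in the sham samples and at 5.43 and 5.61 on day 7 (-6.39 ± 0.94, limma adjusted p = 0.00092). CNMD, chondromodulin, an inhibitor of vessel growth, stood at 12.45, 12.38, 9.60 and 9.61 against 4.64 and 5.36 (-6.01 ± 0.94, limma adjusted p = 0.0013). S100B, a calcium-binding protein of Schwann cells, stood at 10.38, 10.43, 13.51 and 13.43 against 6.36 and 6.45 (-5.53 ± 1.00, limma adjusted p = 0.0026). All sham samples were higher than the day 7 samples, but the sham pairs were about 3 apart on the log2 scale, and these 3 genes were no longer called with the smaller sample count. CASQ2, the calcium store protein of heart and smooth muscle, had a log2 fold change of -5.55 ± 0.39. Of the 12 largest falls, 8 differed by more than 1 between the sham pairs, 3 being higher in sham samples 1 and 2 and 5 in sham samples 3 and 4.

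**Figure D1:**
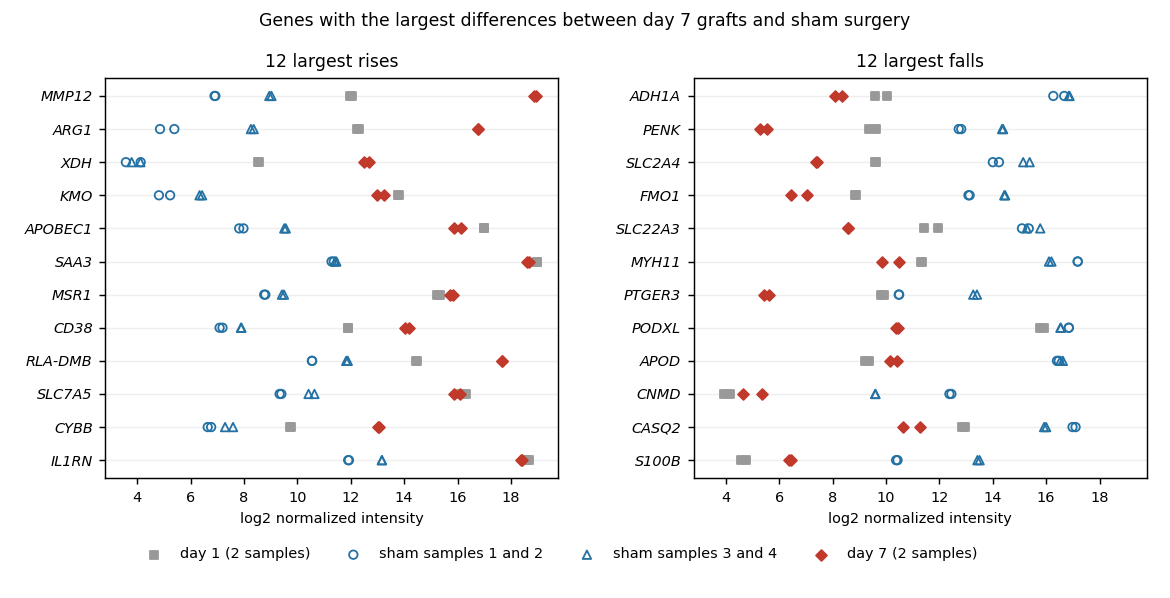
Log2 normalized intensity (x axis) of the 12 genes that rose most and the 12 that fell most among those above background throughout both groups, 1 row per gene and 1 point per sample. Red diamonds are the 2 day 7 samples, blue open circles sham samples 1 and 2, blue open triangles sham samples 3 and 4, and grey squares the 2 day 1 samples. MMP12 stands at 18.95 and 18.84 on day 7 against 6.90 to 9.03 in sham, and S100B shows the gap between the sham pairs, 10.38 and 10.43 against 13.51 and 13.43.

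The day 1 grafts placed these genes in time. Between day 7 and day 1, 41.6% of all genes were called, 19.3% higher and 22.3% lower on day 7, and the day 7 samples are the same ones as above. MMP12 was higher on day 7 than on day 1 by 6.89 on the log2 scale (limma adjusted p = 0.00025), ARG1 by 4.50 (limma adjusted p = 0.014), XDH by 4.02 (limma adjusted p = 7.95e-06), CYBB by 3.30 (limma adjusted p = 8.9e-05), RLA-DMB by 3.23 (limma adjusted p = 0.0011) and CD38 by 2.21 (limma adjusted p = 0.00059). SAA3, IL1RN, SLC7A5, MSR1, KMO and APOBEC1 were not called between day 7 and day 1, with log2 differences of -0.35, -0.24, -0.23, 0.48, -0.68 and -0.997. SAA3 stood at 18.97 and 18.99 and IL1RN at 18.67 and 18.57 on day 1, and saturation at such levels was not tested. Among the largest falls, PODXL stood at 15.77 and 15.92 on day 1 and was lower on day 7 by 5.44 (limma adjusted p = 2.1e-06). ADH1A stood at 10.04 and 9.58 on day 1 and was also called lower on day 7 (-1.59, limma adjusted p = 0.0012). PTGER3, PENK, SLC22A3, SLC2A4, FMO1, CASQ2 and MYH11 were called lower on day 7 than on day 1 too. Their log2 differences were -4.35, -4.07, -3.10, -2.20, -2.12, -1.96 and -1.16. APOD, CNMD and S100B stood at 9.23 and 9.35, at 4.14 and 3.95, and at 4.58 and 4.76 on day 1, and were not called between the time points. On day 1, PODXL thus lay near its sham level, while APOD, CNMD and S100B lay near their day 7 levels or below them.

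Markers of cell types were read next. Their counts are to be read against the shares over all genes, 17.6% called higher and 13.6% lower. In bulk tissue, fewer cells of a type and less RNA per cell cannot be told apart. The 3 macrophage markers measured were all called higher, and their mean log2 level was 14.45 to 14.55 on day 7, 14.14 to 14.18 on day 1 and 8.45 to 9.39 in sham. CD14, the lipopolysaccharide co-receptor, stood at 15.51 and 15.90 against 10.53, 10.46, 11.52 and 11.63 (4.67 ± 0.37, limma adjusted p = 4.7e-05), and CD86, a costimulator of T cells, at 12.02 and 12.06 against 6.28, 6.12, 7.10 and 7.04 (5.404 ± 0.30, limma adjusted p = 8.2e-06). Of 6 neutrophil markers, 4 were called higher. Their mean level was 10.92 to 11.01 on day 7, between that on day 1 (13.84 to 13.88) and that in sham (9.15 to 9.59). The calprotectin chains S100A8 and S100A9 stood at 16.40 and 16.35 and at 15.13 and 15.33 on day 7, which was 3.24 ± 0.50 and 2.66 ± 0.47 above sham (limma adjusted p = 0.0012 and 0.0023) and 2.24 and 2.85 below day 1 (limma adjusted p = 0.012 and 0.003). The antimicrobial proteins CAMP and BPI were 1.48 and 1.86 above sham and 5.12 and 2.03 below day 1. The chemokine receptors CXCR1 and CXCR2 were not called against sham, with log2 fold changes of 0.61 and -0.20. S100A8, S100A9 and CAMP were no longer called against sham with the smaller sample count.

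Of 5 T cell markers, 2 were called higher, and the only B cell marker measured was not called. CD3E, a chain of the T cell receptor complex, stood at 6.65 in both day 7 samples against 5.17, 4.86, 4.73 and 4.59 (1.81 ± 0.16, limma adjusted p = 8.5e-05), and CD5 at 8.42 in both against 6.89, 7.01, 7.10 and 7.13 (1.39 ± 0.10, limma adjusted p = 3.1e-05). CTLA4, CD28, CD4 and the B cell marker MS4A1 were not called, with log2 fold changes of 0.74, 0.03, -0.12 and 0.39, the value of CTLA4 resting on 3 sham samples. Single probes were called higher in 2 of 5 for CTLA4 and in 1 of 3 for MS4A1. The calls of CD3E and CD5 were lost with the smaller sample count and after normexp background correction.

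Markers of the vessel wall were lower on day 7 with some exceptions. Of 4 smooth muscle markers, 3 were called lower, and the mean level was 11.01 to 11.29 on day 7, 13.87 to 15.22 in sham and 10.86 on day 1. DES, the intermediate filament of muscle, stood at 7.57 and 7.82 against 12.70, 12.64, 10.33 and 10.27 (-3.79 ± 0.78, limma adjusted p = 0.0048), and KCNMB1, the beta subunit of the large-conductance potassium channel, at 9.02 in both against 12.54, 12.45, 11.14 and 11.09 (-2.78 ± 0.46, limma adjusted p = 0.0017). Both were higher in sham samples 1 and 2 than in sham samples 3 and 4, as was MYH11, and both calls were lost with the smaller sample count. ACTA2, smooth muscle alpha actin, stood at 17.59 and 17.83 against 18.47, 18.50, 17.89 and 17.94 and was not called (-0.49 ± 0.21). On day 1 it stood at 13.09 and 13.02, and day 7 was higher by 4.65 (limma adjusted p = 8.7e-06), while MYH11 was lower on day 7 than on day 1 by 1.16 (limma adjusted p = 0.0495). Endothelial markers fell in 3 of 4 genes, with a mean level of 5.99 to 6.17 on day 7 against 7.82 to 7.99 in sham. NOS3, the endothelial nitric oxide synthase, stood at 5.90 and 5.93 against 9.06, 8.87, 8.82 and 8.74 (-2.95 ± 0.11, limma adjusted p = 1.8e-06). THBD, thrombomodulin, stood at 11.77 and 11.85 against 13.13, 13.07, 13.03 and 13.05 (-1.26 ± 0.09, limma adjusted p = 2.2e-05), a call lost with the smaller sample count. KDR, a receptor for vascular endothelial growth factor, was not well above background on day 7 and was at least 1.99-fold lower there, at 1.24 and 2.12 against 4.24, 4.51, 4.94 and 4.95 (limma adjusted p = 0.00025), a call lost after normexp correction. SELE was not called (-0.05).

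Markers of fibroblasts, fat, nerve, blood and striated muscle are given together. The fibroblast genes COL1A2 and LUM were not called, with values of 18.91 and 19.13 and of 17.88 and 17.53 on day 7 against 18.95 to 19.07 and 17.72 to 17.94 in sham, and both were above day 1, by 2.71 and 3.33 (limma adjusted p = 4.49e-06 and 4.97e-06). DCN, a small proteoglycan that binds collagen, fell by 1.89 on the log2 scale (limma adjusted p = 9.2e-06), but only 2 of its 6 probes were called and the call was lost with scaling to the 75th percentile. ADIPOQ, the hormone adiponectin of fat cells, stood at 4.96 and 4.83 on day 7, at 8.66, 8.60, 10.11 and 10.07 in sham and at 2.40 and 2.27 on day 1. It was called lower against sham (-4.47 ± 0.49, limma adjusted p = 0.00021) but not with the smaller sample count. LEP and UCP1 were not called, with -0.52 and -0.00. The adipocyte list had a mean level of 4.57 to 4.68 on day 7, 5.80 to 6.02 in sham samples 1 and 2 and 6.67 in sham samples 3 and 4. Nerve markers fell in 3 of 4 genes, with a mean level of 7.29 to 7.36 on day 7, 10.03 to 10.09 in sham samples 1 and 2 and 10.80 to 10.81 in sham samples 3 and 4. PMP22, a myelin protein, had a log2 fold change of -1.75 ± 0.26, a call lost with the smaller sample count, and UCHL1 was not called at -0.91, although 4 of its 6 probes were. Haemoglobin genes HBB2 and HBA and the platelet integrin ITGA2B were not called, with -0.09, -0.46 and -0.60, although 2 of 7 probes of HBA were called higher and 1 of 2 probes of ITGA2B lower. HBB2 stood at 18.96 and 19.03 on day 7 against 19.01 to 19.16 in sham, and saturation at such levels was not tested. The part that fat, nerve or muscle left on the vein took in any other result was not tested.

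Of 12 striated muscle markers, 3 were called higher and 2 lower, with a median of -0.05. Over all genes, the shares were 17.6% and 13.6%, with a median of 0.05. CASQ1, the calcium store protein of fast skeletal muscle, stood at 6.74 and 6.58 against 3.23, 3.04, 2.65 and 3.41 (3.57 ± 0.21, limma adjusted p = 1.02e-05), with 2 of 4 sham arrays well above background. The troponin TNNI2 was 1.85 ± 0.29 higher and the myosin light chain MYL1 1.45 ± 0.26 higher, the latter at 5.68 and 4.67 on day 7, and without day 7 sample 1 its log2 fold change was 0.94, under the threshold. CKM, the creatine kinase of muscle, was not well above background on day 7, where it stood at 1.86 and 1.41, and was at least 2.03-fold lower than in sham (4.59, 4.93, 4.87 and 4.37, limma adjusted p = 1.9e-05). MYOZ1, a protein of the Z disc, had a log2 fold change of -1.66 ± 0.37 and was not called without day 7 sample 1 (-1.57, limma adjusted p = 0.054). Among the genes not called, MYH1, MYH6, TNNC1, TNNC2, ACTN2, ACTN3 and RYR1 lay between -0.41 and 0.47, although 1 of 4 probes of MYH1 was called higher (2.23). All 12 had a mean level of 6.27 to 6.35 on day 7, 6.01 to 6.34 in sham and 8.33 to 8.39 on day 1. The calls of TNNI2, MYL1 and MYOZ1 were lost with the smaller sample count and those of CASQ1, CKM, MYL1 and MYOZ1 after normexp correction.

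**Figure D2:**
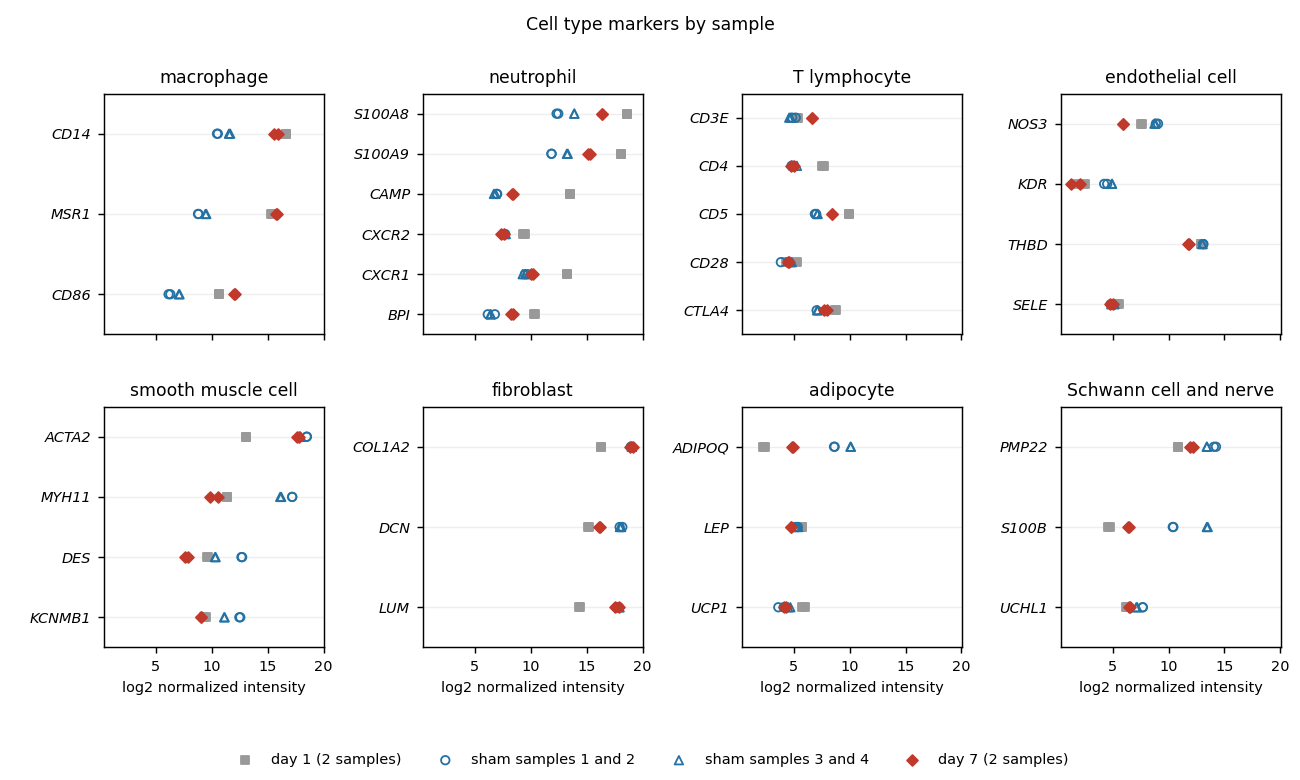
Log2 normalized intensity (x axis) of cell type markers, 1 panel per cell type, 1 row per gene and 1 point per sample. Symbols are red diamonds for day 7, blue open circles for sham samples 1 and 2, blue open triangles for sham samples 3 and 4 and grey squares for day 1. All 3 macrophage markers lie to the right of sham on day 7, the neutrophil markers lie highest on day 1, and ACTA2 stands at 17.59 and 17.83 on day 7 against 13.09 and 13.02 on day 1.

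Over all genes, 17.6% were called higher and 13.6% lower, with a median log2 fold change of 0.05. The lists below are to be read against these shares, and some lie near them. Of 11 measured receptors and enzymes of phagocytes, 9 were called higher and 1 lower, with a median of 3.01. As many were called higher with the smaller sample count. SCARB1, the high-density lipoprotein receptor, was the exception and stood at 12.80 and 12.91 against 14.46, 14.67, 16.08 and 16.26 (-2.51 ± 0.54, limma adjusted p = 0.0056), a call lost with the smaller sample count. LGALS3, galectin 3, was not called at 0.75, although 1 of its 5 probes was. Lysosomal genes rose in 4 of 8, with a median of 1.054. CTSK, the collagen- and elastin-cutting cathepsin K, stood at 18.54 and 18.49 against 16.19, 16.08, 15.86 and 15.77 (2.54 ± 0.14, limma adjusted p = 7.6e-06), and ASAH1, acid ceramidase, at 16.89 and 16.98 against 14.38, 14.01, 14.52 and 14.60 (2.56 ± 0.17, limma adjusted p = 1.9e-05). ACP5, the tartrate-resistant acid phosphatase of osteoclasts and macrophages, was 3.08 ± 0.58 higher, but stood at 5.58, 5.85, 7.54 and 7.42 in the sham samples and was not called with the smaller sample count. NPC1, the cholesterol exporter of lysosomes, differed by 0.16.

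The antigen presentation and interferon list held 13 measured genes, of which 7 were called higher and 1 lower, with a median of 1.81. RLA-DMA, the partner of RLA-DMB, stood at 17.54 and 17.58 against 12.75, 12.86, 12.77 and 12.94 (4.73 ± 0.09, limma adjusted p = 2.7e-07). APOBEC1, an RNA-editing enzyme and no antigen presentation gene, also stands in this list. CD1D, which presents lipids to natural killer T cells, fell by 1.67 on the log2 scale (limma adjusted p = 6.5e-05), and CD1A differed by 0.32 without a call. The calls of CD1D and PDIA3, a chaperone of class I loading with a log2 fold change of 1.57, were lost with the smaller sample count. CD1B and OASL, named after their values were seen, had log2 fold changes of 1.83 and 1.81 with adjusted p of 0.12 and 0.11. They stood at 6.94, 6.83, 9.62 and 9.62 and at 4.996, 4.76, 7.50 and 7.54 in the sham samples, so that sham samples 3 and 4 came close to the day 7 values of 10.13 and 10.03 and of 7.98 and 8.03.

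Of 14 measured cytokine genes outside the study's tables, 3 were called higher and 2 lower, with a median of 0.14. CX3CR1, the fractalkine receptor of monocytes, stood at 6.61 and 6.599 against 4.70, 4.56, 4.59 and 4.78 (1.95 ± 0.10, limma adjusted p = 5.8e-06). Its call was lost after normexp correction. CCL21, a chemokine of lymphatic endothelium, stood at 10.58 and 10.81 against 12.96, 13.12, 12.58 and 12.70 (-2.14 ± 0.18, limma adjusted p = 5.8e-05), and on day 1 at 6.70 and 6.95. IL18 fell by 1.36 on the log2 scale (limma adjusted p = 0.00076), a call lost with the smaller sample count and with scaling to the 75th percentile, and IL2 differed by 0.01.

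Of 10 measured matrix proteinases and inhibitors, 6 were called higher and 2 lower, with a median of 1.62. MMP13, a collagenase, was not well above background on any sham array and was at least 27.9-fold higher on day 7, at 7.76 and 7.92 against 1.20, 1.21, 1.25 and 1.19 (limma adjusted p = 5.4e-07). On day 1 it stood at 3.07 and 2.36. TIMP1, an inhibitor of these enzymes, stood at 17.10 and 17.05 against 13.95, 13.78, 13.65 and 13.60 (3.33 ± 0.12, limma adjusted p = 1.5e-06). TIMP3, an inhibitor bound to matrix, stood at 9.82 and 9.89 against 12.97, 12.91, 12.70 and 12.78 (-2.99 ± 0.11, limma adjusted p = 1.4e-06), and TIMP4 at 3.51 and 3.95 against 9.07, 8.97, 11.06 and 10.96 (-6.29 ± 0.67, limma adjusted p = 0.00019), with 3 of 6 day 7 arrays well above background. So 1 inhibitor was higher and 2 were lower in the same samples. PLAU, urokinase, was 1.82 ± 0.33 higher, a call lost with the smaller sample count, and PLAT, tissue plasminogen activator, differed by 0.17 without a call.

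Matrix genes proper showed no common direction. Of 20 measured, 6 were called higher, 5 lower and 9 not called, with a median of 0.09. COL1A2, a chain of type I collagen, was at -0.00 by its brightest probe. None of its 11 probes was called, with log2 fold changes from -0.00 to 0.95. The brightest stood at 18.91 and 19.13 on day 7, among the highest intensities given here, and saturation at such levels was not tested. VTN, the adhesive glycoprotein vitronectin, stood at 8.65 and 8.88 against 1.51, 1.68, 6.36 and 6.23 (4.82 ± 1.54, limma adjusted p = 0.031), was well above background on 2 of 4 sham arrays, and lost its call without either day 7 sample (4.93 and 4.71, limma adjusted p = 0.12 and 0.13) and without sham sample 2 (4.07, limma adjusted p = 0.054). P4HB, a subunit of collagen prolyl hydroxylase, stood at 8.36 and 8.32 against 6.43, 6.30, 6.49 and 6.62 (1.88 ± 0.13, limma adjusted p = 2.6e-05). MATN1, matrilin, was 1.59 ± 0.24 higher with 1 of 4 sham arrays well above background. LAMB2, a laminin chain of basement membranes, stood at 11.59 and 11.77 against 16.05, 15.79, 15.49 and 15.43 (-4.01 ± 0.18, limma adjusted p = 3.9e-06), although only 1 of its 2 probes was called. THBS1, thrombospondin 1, fell by 1.89 on the log2 scale (limma adjusted p = 0.0014) in 3 of 4 probes. VTN, MATN1 and THBS1 were not called with the smaller sample count, and MATN1 not after normexp correction. POSTN, periostin, named after its values were seen, stood at 15.56 and 15.90 on day 7, at 15.22, 15.22, 13.22 and 13.37 in sham and at a mean of 9.35 on day 1, and was not called against sham (1.47 ± 0.64).

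Plasma and complement proteins were mostly lower. Of 13 measured, 7 were called lower and 2 higher, with a median of -1.13, and SAA3 stood against that direction. TF, the iron carrier transferrin, stood at 12.50 and 12.70 against 16.83, 16.75, 17.36 and 17.39 (-4.48 ± 0.21, limma adjusted p = 4.4e-06). CD59, which shields cells from the membrane attack complex, stood at 9.87 and 9.94 against 13.46, 13.42, 13.49 and 13.55 (-3.58 ± 0.09, limma adjusted p = 4.1e-07), and all 10 of its probes were called lower. LBP, which binds lipopolysaccharide, was not well above background on day 7 and was at least 11.9-fold lower, at 3.01 and 3.11 against 6.34, 6.16, 8.20 and 8.28 (limma adjusted p = 0.0013). CLU, clusterin, was 1.43 ± 0.12 higher than sham and 2.37 above day 1, and C9 differed by 0.05, although 1 of its 3 probes was called higher (1.39). The calls of LBP and CLU were lost with the smaller sample count. In coagulation and fibrinolysis, 4 of 16 genes were lower and 2 higher, with a median of -0.17. PROS1, the anticoagulant protein S, stood at 10.82 and 11.12 against 14.83, 15.00, 14.04 and 14.06 (-3.51 ± 0.30, limma adjusted p = 6.8e-05). SERPINB2, an inhibitor of plasminogen activators, was 2.17 ± 0.11 higher, and SERPIND1, heparin cofactor II, was at -0.01. PROC, protein C, fell by 1.28 on the log2 scale, a call lost with the smaller sample count and after normexp correction.

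Of 10 measured genes of smooth muscle and the actin cytoskeleton, 4 were called lower and 1 higher, with a median of -0.62. SYNPO2, an actin-bundling protein of muscle, stood at 6.00 and 6.03 against 10.68, 10.69, 9.83 and 9.98 (-4.28 ± 0.27, limma adjusted p = 1.5e-05). TPM4, a non-muscle tropomyosin, stood at 11.80 and 11.93 against 10.002, 9.97, 10.42 and 10.38 (1.67 ± 0.16, limma adjusted p = 0.00012), a call lost with the smaller sample count. ACTB, cytoplasmic beta actin, stood at 19.09 and 18.95 against 18.99 to 19.04, with log2 fold changes from -0.40 to 0.68 over its 3 probes. Saturation at such levels was not tested. Of 8 genes of the sarcolemma complex and integrins, 3 were lower and 5 not called, with a median of -0.59. Sarcoglycans link the muscle membrane to laminin, and SGCA stood at 5.92 and 6.28 against 10.49, 10.51, 9.80 and 9.97 (-4.09 ± 0.24, limma adjusted p = 1.1e-05). ITGB1, the common integrin beta chain, differed by -0.11.

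Of 26 measured genes of calcium stores and channels, 6 were called lower and 3 higher, a share of calls near that of all genes, with a median of -0.13. The store protein CASQ2 stood at 10.64 and 11.27 against 16.99, 17.10, 16.00 and 15.92 (limma adjusted p = 2.5e-05). Ryanodine receptors release calcium from the store, and RYR3 stood at 8.24 and 8.81 against 13.99, 14.11, 13.19 and 13.14 (-5.09 ± 0.33, limma adjusted p = 1.6e-05), RYR2 at 5.97 and 5.96 against 11.15, 10.94, 8.998 and 8.90 (-4.03 ± 0.69, limma adjusted p = 0.002). RYR1, the skeletal form, was not called (-0.09). The pump ATP2A1 was 1.49 ± 0.36 higher than sham but 5.77 below day 1, and was not called without day 7 sample 1 (1.41, limma adjusted p = 0.065). ATP2B1, the calcium pump of the plasma membrane, stood at 13.16 and 13.09 against 11.70, 11.495, 11.51 and 11.44 (1.59 ± 0.11, limma adjusted p = 1.9e-05), and TRDN, triadin, differed by -0.03, although 1 of its 3 probes was called higher (1.76). RYR2, ATP2A1 and ATP2B1 were not called with the smaller sample count, and ATP2A1 and CASQ1 not after normexp correction.

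Among 44 potassium, sodium and chloride channels and pumps, 11 were called lower, 6 higher and 27 not called, with a median of -0.19. KCNA5, a voltage-gated potassium channel of vascular muscle, stood at 4.38 and 4.32 against 8.995, 8.95, 9.52 and 9.73 (-4.95 ± 0.36, limma adjusted p = 2.7e-05). KCNAB1, the beta subunit of such channels, stood at 7.61 and 7.86 against 13.27, 13.22, 12.12 and 12.04 (-4.93 ± 0.39, limma adjusted p = 4.6e-05). CLCN7, the chloride exchanger of lysosomes and osteoclasts, stood at 17.23 and 17.21 against 14.64, 14.56, 14.76 and 14.96 (2.49 ± 0.13, limma adjusted p = 6.1e-06), and GJA1, a connexin of gap junctions, at 12.98 and 13.01 against 10.43, 10.45, 10.86 and 10.85 (2.35 ± 0.16, limma adjusted p = 2.1e-05). GJA1 stood at 8.90 and 8.78 on day 1. KCNA1 was at least 2.71-fold higher than in sham, at 4.65 and 4.37 against 2.65, 2.60, 3.05 and 2.84, where it was not well above background (limma adjusted p = 0.0019), a call lost with the smaller sample count and after normexp correction, and KCNA10 differed by -0.03, although 1 of its 2 probes was called lower (-2.76).

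**Figure D3:**
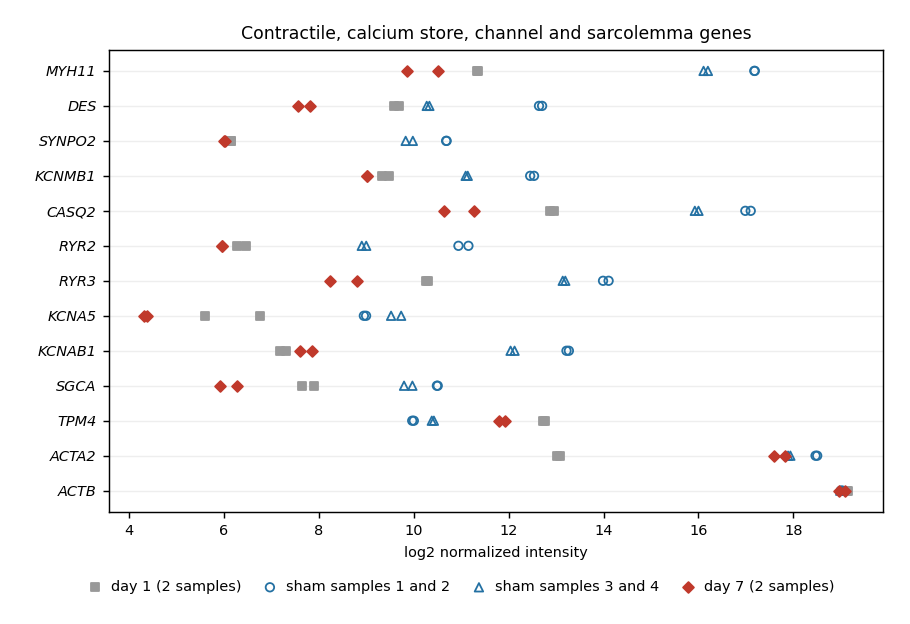
Log2 normalized intensity (x axis) of genes of the contractile apparatus, calcium stores, potassium channels and a sarcoglycan, with 1 row per gene and 1 point per sample. Red diamonds are day 7, blue open circles sham samples 1 and 2, blue open triangles sham samples 3 and 4 and grey squares day 1. From MYH11 to SGCA all genes are lower on day 7 than in every sham sample. TPM4 is higher, at 11.80 and 11.93 against 9.97 to 10.42, and ACTA2 and ACTB lie close to sham.

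Of 27 measured receptors for hormones and transmitters, 6 were called higher and 5 lower, with a median of -0.10. PTGER4, a receptor for prostaglandin E, stood at 15.26 and 15.49 against 12.92, 12.93, 13.26 and 13.34 (2.27 ± 0.16, limma adjusted p = 2.4e-05), PTGER2 was not called (-0.32), and PTGER3 was among the largest falls. NPR3, the clearance receptor of natriuretic peptides, stood at 10.12 and 10.01 against 7.27, 7.25, 7.37 and 7.27 (2.78 ± 0.09, limma adjusted p = 1.1e-06), and on day 1 at 6.17 and 6.28. ADORA3, an adenosine receptor, was 2.73 ± 0.25 higher. NPY1R, the receptor of neuropeptide Y, stood at 5.37 and 5.43 against 10.19, 10.10, 9.70 and 9.69 (-4.52 ± 0.17, limma adjusted p = 1.7e-06), and PTH1R had a log2 fold change of -2.89 ± 0.22. EDNRA, the endothelin receptor of smooth muscle, differed by -0.04.

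Growth factors and their receptors showed 3 rises and 4 falls among 17 measured, with a median of -0.29. FGF7, a growth factor that stromal cells make for epithelium, stood at 12.53 and 12.98 against 10.04, 10.01, 10.64 and 10.23 (2.52 ± 0.21, limma adjusted p = 6.03e-05) and at 9.17 and 9.34 on day 1. MDK, the heparin-binding factor midkine, was 1.28 ± 0.23 above sham and 6.26 above day 1 (limma adjusted p = 4.6e-06), where it stood at 3.91 and 4.14. WNT5A was at least 1.89-fold higher than in sham, at 4.20 and 3.72 against 1.61, 1.38, 2.02 and 2.09, where it was not well above background (limma adjusted p = 0.00033). FGFR2, a receptor of FGF7 in its epithelial form, was at least 1.56-fold lower, at 1.55 and 1.40 on day 7, where it was not well above background, against 4.88, 5.19, 3.65 and 3.53 (limma adjusted p = 0.002). NOG, noggin, differed by -0.03. The calls of MDK, WNT5A and FGFR2 were lost with the smaller sample count, and those of WNT5A, FGFR2 and KDR after normexp correction.

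The list of xenobiotic, retinoid and alcohol metabolism held 42 measured genes, of which 13 were called lower and none higher, while 29 were not called, with a median of -0.35. At an unadjusted p under 0.05, limma gave 6 members as higher and 16 as lower, and the highest log2 fold change in the list was 0.86. Those 6 were also under 0.05 after adjustment, as were 57.8% of all genes, and missed the call by their fold change. FMO2, the flavin monooxygenase of lung and other non-hepatic tissues, stood at 12.49, 12.58, 12.89 and 12.88 in sham and at 1.28 and 1.22 on day 7, where none of 6 arrays was well above background, and was at least 527-fold lower (limma adjusted p = 7.6e-08). On day 1 it stood at 6.66 and 6.58. With FMO1 at 6.45 and 7.05 against 13.13, 13.09, 14.46 and 14.43, both flavin monooxygenases lay far below sham. ALDH1A1, the retinal dehydrogenase, CES1, a carboxylesterase, and CYP4B1 had log2 fold changes of -3.01, -4.01 and -3.98 and were named after their values were seen. CYP4A5 differed by -0.06.

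Solute carriers were called lower in 10 and higher in 3 of 45, with a median of -0.01. SLC3A2 stood at 12.48 and 12.41 against 9.21, 9.13, 9.30 and 9.29 (limma adjusted p = 7.3e-07), and at 9.29 and 9.41 on day 1, whereas its partner SLC7A5 had stood at 16.30 and 16.13 on day 1 already. SLC12A7, a potassium chloride cotransporter, was 1.57 ± 0.14 higher. SLC15A2, a carrier of small peptides, stood at 6.82 and 7.12 against 9.46, 9.56, 11.81 and 11.86 (-3.70 ± 0.77, limma adjusted p = 0.0049). SLC12A7 and SLC15A2 were not called with the smaller sample count. SLCO2B1, an organic anion carrier at 5.50, 5.44, 7.89 and 7.96 in sham, had a log2 fold change of -2.35 ± 0.81 (limma adjusted p = 0.04) and lost its call without day 7 sample 1 or 2 (-2.30 and -2.40), without sham sample 3 or 4 (-1.95 and -1.93), with the smaller sample count and after normexp correction.

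Of 24 measured genes of glycolysis and glycogen, 9 were called higher and 4 lower, with a median of 0.66. Most calls as higher in this list were lost with the smaller sample count, as were most calls over all genes. PKM, pyruvate kinase, stood at 14.10 and 14.25 against 11.10, 11.06, 10.96 and 10.88 (3.18 ± 0.10, limma adjusted p = 9.9e-07). ENO1, enolase, was 2.38 ± 0.21 higher. PYGM and PHKB, which break down glycogen and switch that step on, had log2 fold changes of -2.29 ± 0.32 and -1.79 ± 0.11. ALDOC, an aldolase of brain, stood at 8.99 and 9.35 against 10.70, 10.59, 13.19 and 13.25 (-2.76 ± 0.85, limma adjusted p = 0.027) and was not called without either day 7 sample (-2.58 and -2.94, limma adjusted p = 0.13 and 0.095). PFKP, a phosphofructokinase, differed by 0.01.

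Fatty acid and mitochondrial genes were few, with 2 of 10 higher, 2 lower and a median of 0.00. ACO1, the cytosolic aconitase that senses iron, stood at 13.02 and 12.76 against 10.63, 10.48, 10.23 and 10.27 (2.49 ± 0.15, limma adjusted p = 1.3e-05). SDHB, a subunit of succinate dehydrogenase, was 1.12 ± 0.19 higher, a call lost with the mean of its probes. ACOX2, a peroxisomal oxidase, stood at 4.77 and 4.96 against 8.09, 8.14, 11.54 and 11.496 (-4.95 ± 1.12, limma adjusted p = 0.0074) and was not called without day 7 sample 1 (-4.86, limma adjusted p = 0.051). ECHS1, an enoyl-CoA hydratase, had a log2 fold change of -1.91 ± 0.44 and was not called without day 7 sample 2 (-1.89, limma adjusted p = 0.050004). ETFA differed by -0.01. SDHB, ACOX2 and ECHS1 were not called with the smaller sample count. LPL, lipoprotein lipase, named after its values were seen, stood at 10.03 and 10.13 in sham samples 1 and 2, at 16.92 and 16.88 in sham samples 3 and 4 and at 8.99 and 9.04 on day 7, and with this gap was not called (-4.48 ± 2.23).

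In redox and iron handling, 3 of 14 genes were higher and 3 lower, with a median of 0.30, the rises being ARG1, XDH and ACO1. GPX3, the glutathione peroxidase of plasma, stood at 9.90 and 10.50 against 12.71, 12.78, 12.35 and 12.54 (-2.40 ± 0.25, limma adjusted p = 0.00018). SOD3, the extracellular superoxide dismutase, was not well above background on day 7 and was at least 1.84-fold lower, at 1.87 and 1.48 against 4.15, 4.08, 4.97 and 5.0004 (limma adjusted p = 0.00021), a call lost with the smaller sample count and after normexp correction. GCLC, an enzyme of glutathione synthesis, differed by 0.22.

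Of 12 measured genes of eicosanoid synthesis and phospholipases, 3 were called higher and 3 lower, with a median of 0.37. ALOX5AP, the protein that presents arachidonate to 5-lipoxygenase, stood at 14.47 and 14.10 against 10.73, 10.64, 11.18 and 11.16 (3.36 ± 0.20, limma adjusted p = 1.1e-05), and LTA4H, which makes leukotriene B4, was 1.48 ± 0.14 higher, with 2 of its 3 probes called. PTGS1, cyclooxygenase 1, stood at 7.05 and 7.04 against 9.45, 9.35, 9.98 and 9.96 (-2.64 ± 0.21, limma adjusted p = 4.04e-05), and PTGDS, a prostaglandin D synthase, at 7.48 and 7.49 against 10.97, 10.83, 10.63 and 10.68 (-3.29 ± 0.12, limma adjusted p = 1.7e-06). PTGS2, cyclooxygenase 2, had only 1 day 7 sample with a value, 15.13, against 16.14, 16.05, 16.37 and 16.39 (a log2 fold change of -1.10). Its call as lower rests on that sample, which the model assumes to vary like the others, and was lost with the smaller sample count, with normexp correction and with scaling to the 75th percentile. ANXA8, an annexin, was 1.049 ± 0.34 higher and lost its call without either day 7 sample (0.998 and 1.099) and without sham sample 3 or 4 (0.88 in both), and ANXA11 differed by 0.08. LTA4H and ANXA8 were not called with the smaller sample count.

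Genes of protein folding and the endoplasmic reticulum were called higher in 6 and lower in 1 of 16, with a median of 0.57. Over all genes, 17.6% were higher and 13.6% lower. Most calls as higher in this list were lost with the smaller sample count, as were most calls over all genes. P4HB, described above, and SSR1, a subunit of the translocon-associated complex with a log2 fold change of 1.67 ± 0.11, were among the rises, and PDIA3 stood at 17.45 and 17.58 against 15.73, 15.50, 16.20 and 16.34. CRYAB, a small heat shock protein of muscle and lens, stood at 11.88 and 12.17 against 17.19, 17.01, 17.63 and 17.65 (-5.34 ± 0.21, limma adjusted p = 1.9e-06), the only member called lower. HSPE1, a mitochondrial chaperonin, differed by 0.06. Of 6 cell cycle genes outside the study's tables, 1 was called higher and 5 were not called, with a median of 0.75. Those not called lay between 0.40 and 0.77, under the fold threshold. Each had a limma adjusted p under 0.05, as did 57.8% of all genes. HMGB2, a chromatin protein, at 0.40, was 1.98 lower than on day 1 (limma adjusted p = 1.5e-05).

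**Figure D4:**
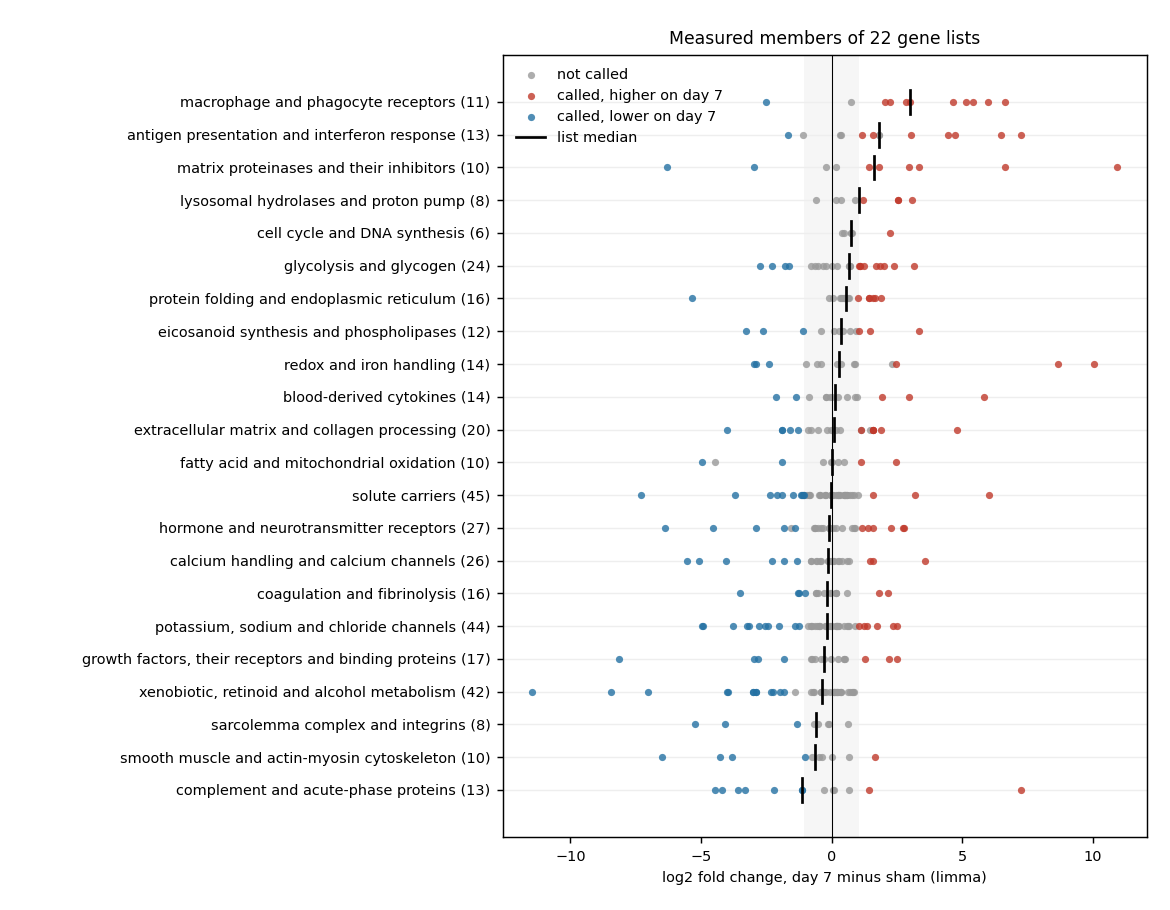
Log2 fold change of day 7 minus sham (x axis) for every measured member of 22 gene lists, 1 row per list with the number measured in parentheses. Points are genes, red where called higher on day 7, blue where called lower and grey where not called, black bars are list medians, and the shaded band spans log2 fold changes between -1 and 1. The phagocyte list has the highest median (3.01) and the complement and acute-phase list the lowest (-1.13). Points of genes not well above background in a group are computed fold changes, not bounds.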

How the data were processed

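Arrays were scanned with Agilent Feature Extraction, version 9.1 per the labels and 11.0.1.1 per the file headers. The deposited files give a background-subtracted intensity per spot, and the authors also deposited log2 values that they had quantile-normalized and filtered. The unit of both was checked against the values. Here control spots were removed (45220 spots, 43603 probes left), spots with outlier flags were set to missing, log2 intensities were quantile-normalized, and 35761 probes were kept, namely those that passed the scanner's test of standing well above background throughout 1 group or more. That test was passed by 32972 to 36317 probes on the day 7 and sham arrays. Precision rests on the number of arrays, since intensities carry no counts. The brightest probe stood for a gene. Names came from RefSeq accessions, through the mOryCun1.1 gene list (3368 probes), and from gene identifiers in a supplement of the study (2816 probes). Unnamed genes stayed in the model under their accession. No coordinates and no sequences are printed.

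Arrays of the same position in different scans were averaged in the day 1 and day 7 groups. Scans were told apart by an identifier in the file headers, and whether they were of separate slides was not established. limma 3.58.1 (lmFit, eBayes) in R 4.3.3 was fitted to all 3 groups, with 2, 2 and 4 samples. Replicate numbers were checked for pairing of day 7 and sham samples. The bound for a dim probe is the mean of the brighter group over the dim group's mean of, per array, the higher of the lowest signal well above background and the probe's own. On simulated data of this comparison, with 200 changed genes of 19122, 156 were recovered and 5 unchanged genes were called. There the noise of each sample was drawn independently, unlike the paired sham arrays and the nearly alike day 7 samples. The simulation thus gives no rate of false calls for the real arrays. Figures used Python 3.11.15, pandas 2.3.3 and matplotlib 3.10.9.

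Genes named are the 12 largest rises and falls among called genes that were above background throughout both groups, with samples that do not overlap, up to 3 of each direction and the member with the smallest change per pathway list, and every measured cell type marker. The genes described and the lists were chosen with earlier results of these data known. Some genes that the rule names are not reported here and are not drawn in the figures of single genes.

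Tried as alternatives were no averaging (16 samples), the authors' log2 values, normexp correction of the background (offset 50) and scaling to the 75th percentile. Further ones were no filter, a filter on all 16 arrays, averaged probes per gene and a model without day 1. Sham arrays in pairs, the replicate number or the scan as a block, and each sample left out were also tried. The smaller sample count was added after seeing the data.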

Additional observations from a re-analysis of the deposited data

Results flagged for a closer look

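In 3 of the genes named, 1 of the 4 sham samples stood apart from the other 3, by a gap that made up most of the range of the group. For ACTN2, sham sample 3 stood at 6.14 against 6.36, 6.36 and 6.40, and the gap was 0.851 of the range. For ANXA11, sham sample 3 stood at 16.84 against 17.07, 17.03 and 17.04, and the gap was 0.839 of the range. For NPR3, sham sample 3 stood at 7.37 against 7.27, 7.25 and 7.27, and the gap was 0.857 of the range. Chance alone gives such a gap in about 1 of 20 groups, and 167 genes were looked at.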

How the results depend on the processing

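Of the 124 called genes named above, 65 were called under every alternative that gave a value, 59 lost the call under at least 1, and no called gene changed direction. With the smaller sample count 71 of the 124 were still called, after normexp correction 105 and with scaling to the 75th percentile 120. Over all genes, 1974 were called with the smaller sample count (1119 higher, 855 lower), and 222 of the genes described (115 higher, 107 lower). After normexp correction 3361 of all genes were called (1899 higher, 1462 lower). Scaling to the 75th percentile moved the median of all genes from 0.05 to -0.06. Leaving out 1 sample gave 5509 to 6080 calls over all genes (3125 to 3421 higher, 2384 to 2673 lower) and 582 to 662 among the genes described (310 to 350 higher, 271 to 312 lower). Deviations of same-numbered day 7 and sham arrays correlated at 0.014 to 0.021. This check cannot decide on pairing by replicate number, since day 7 arrays 1 and 3, and likewise 2 and 4, differed by less than spot noise. With all 16 arrays as separate samples, 6352 genes were called with the replicate number as a block and 6368 without it. Of these, 682 and 685 were among the genes described. Intensities near background limit what can be read for dim probes, and the scan of the sham arrays cannot be told apart from the group.

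Log2 fold changes that changed sign were all of genes not called, and the cause was not tested. With the authors' values they were HSPE1 -0.0090, IL2 -0.0081 and PFKP -0.075. With scaling to the 75th percentile they were ACTA2 0.0020, ACTB -0.071, C9 -0.044, CD1A -0.027, CD28 -0.29, ETFA 0.11, HBA 0.10, IL2 -0.29, ITGB1 0.032, LUM 0.40, PLAT -0.022 and TNNC2 -0.055. After normexp correction they were ACTB -0.10, C9 -0.039, CD28 -0.0048, COL1A2 0.15, EDNRA 0.028, IL2 -0.012, SERPIND1 0.014 and UCP1 0.050. With averaged probes they were ACTN2 0.25, COL1A2 0.41, CYP4A5 0.23, ETFA 0.16, HBA 0.56, HSPE1 -0.069, IL2 -0.15, PFKP -0.11, SELE 0.20, TRDN 0.80 and UCP1 0.10. With the replicate block they were COL1A2 0.011 and UCP1 0.019. Leaving out 1 sample gave ranges of -0.060 to 0.073 for ACTB, -0.088 to 0.063 for ACTN2, -0.071 to 0.16 for C9, -0.17 to 0.15 for CD28, -0.26 to 0.010 for CD4, -0.11 to 0.10 for COL1A2, -0.18 to 0.070 for CYP4A5, -0.16 to 0.091 for EDNRA, -0.29 to 0.22 for ETFA, -0.072 to 0.19 for HSPE1, -0.26 to 0.34 for IL2, -0.18 to 0.12 for KCNA10, -0.34 to 0.0096 for LUM, -0.22 to 0.17 for NOG, -0.13 to 0.14 for PFKP, -0.34 to 0.15 for RYR1, -0.19 to 0.083 for SELE, -0.14 to 0.12 for SERPIND1, -1.06 to 0.29 for TNNC1, -0.36 to 0.59 for TNNC2, -0.12 to 0.066 for TRDN and -0.21 to 0.15 for UCP1.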
